A study of Homo sapiens with 108 samples.

Results

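WSU-DLCL2, a human B cell lymphoma cell line, was compared before any EZH2 inhibitor treatment with 3 other lymphoma lines, Karpas422, SU-DHL6 and Pfeiffer. The compared arrays were those of vehicle-treated cells (DMSO, the control dose) at days 2 and 4: 6 of WSU-DLCL2, out of 108 in the series, and 6 of each other line, 18 in all. The series was made to follow EPZ6438, a small-molecule inhibitor of the histone methyltransferase EZH2, which was given to each line at a dose named LCC and at 10xLCC for 2, 4 or 6 days. The labels used here do not give the concentration behind LCC. The series description gives the EZH2 Y641 mutation for WSU-DLCL2, SU-DHL6 and Karpas422 and its absence for Pfeiffer, so WSU-DLCL2 shares that feature with 2 of its 3 comparison lines. Each line-by-day group held 3 arrays named A, B and C. Nothing says that these were separate cultures, and each line is a single cell line, so the p-values measure the spread between these arrays and say nothing of other lymphomas.

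Diffuse large B cell lymphomas of the germinal centre type carry the expression program of B cells that mutate and select their antibody genes in lymphoid follicles, under the control of BCL6. Leaving that state for the plasma cell or activated B cell state means losing those genes and gaining IRF4, PRDM1 and XBP1. EZH2 writes a repressive mark on histone H3 and is abundant in germinal centre B cells, where it holds differentiation and antigen presentation genes down. Lymphomas of one class still differ in surface antigens, interferon response, MHC genes and DNA copy number, and those are the levels described here for WSU-DLCL2.

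All values are log2 of the array intensity, so a difference of 1 is 2-fold; a level is compared between lines for the same probe set, never between genes. Array medians of the 24 ran from 6.25 to 6.37. The beta-actin 3'/5' log2 ratio, which rises when RNA is degraded, lay between -0.183 and 0.078 on them. Array A of WSU-DLCL2 at day 4 lay farther from its group than the other WSU-DLCL2 arrays, with a root mean square deviation of 0.186 against 0.0767 to 0.125. Arrays A of SU-DHL6 and of Pfeiffer at day 2 stood out likewise, at 0.312 and 0.249. The label of a B cell line was borne out by the defining markers: MS4A1, which encodes CD20, lay at 13.76, 13.82 and 13.85 on the lowest, median and highest WSU-DLCL2 array, and CD79A, a signalling chain of the B cell receptor, at 12.35, 12.51 and 12.73.

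Of 18217 autosomal genes tested with limma, 3640 (20.0%) were higher in WSU-DLCL2 than the mean of the other 3 lines and 4519 (24.8%) were lower, at a Benjamini-Hochberg adjusted p below 0.05. In bulk RNA, fewer cells that express a gene and less of its RNA per cell cannot be told apart. Differences of at least 2-fold were made by 703 of the higher and 704 of the lower genes. Karpas422 gave 3279 genes (18%) at which WSU-DLCL2 was higher and 4392 (24.1%) at which it was lower. For SU-DHL6 these were 3762 (20.7%) and 3579 (19.6%), and for Pfeiffer 4055 (22.3%) and 4448 (24.4%). By the root mean square difference over all genes, WSU-DLCL2 lay nearest to SU-DHL6 (0.666), then to Karpas422 (0.811) and Pfeiffer (0.902), and the distances among the other 3 lines were 0.866 to 0.992. Genes at least 2-fold apart numbered 1469, 1869 and 2274 in the same order.

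A stricter class held the genes that WSU-DLCL2 expressed above, or below, every one of the other lines. It took in 1249 genes called higher than each line (6.86%) and 1108 called lower than each (6.08%). Over all genes the 6 WSU-DLCL2 arrays lay wholly above the 18 others for 784 (4.30%) and wholly below them for 471 (2.59%); 776 of the 1249 and 469 of the 1108 were among them. The distance to the nearest other line was at least 2-fold for 187 of the higher and 95 of the lower genes and at least 4-fold for 56 and 17. A stricter model took the line as a random block, so that arrays of 1 line shared a correlation, 0.618 for all genes. With it 448 genes stayed called higher and 273 lower than the mean, all of them also called in the analysis above. Its error still rests on the arrays and WSU-DLCL2 is 1 line, so it is not a test with lines as the units. Day 2 arrays alone gave 2755 lower genes and 500 lower than each line, and day 4 arrays alone 4336 and 1209. Leaving out the arrays lettered B in every group gave 729 lower than each.

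The genes that set WSU-DLCL2 highest above its nearest neighbour were led by ARHGEF26, a guanine nucleotide exchange factor on chromosome 3. Its WSU-DLCL2 arrays lay at 10.48, 10.65 and 10.74 (lowest, median, highest), against 4.13, 4.19 and 4.60 in Karpas422, 4.07, 4.17 and 4.53 in SU-DHL6, and 4.42, 5.09 and 5.14 in Pfeiffer. No other-line array came near the WSU-DLCL2 arrays, and 3 of 3 probe sets differed the same way by at least 0.25, the size asked of a probe set in every such count. The difference from the mean of the other lines was 6.16 (SE 0.1, limma adjusted p = 8.15e-23), and Pfeiffer was the nearest line. No fold is given for this gene, nor for others with a line mean below log2 5 on the low side of the comparison, since levels that close to the bottom of the scale do not fix a ratio. TUBB6, a beta-tubulin on chromosome 18, lay at 12.19, 12.30 and 12.38 in WSU-DLCL2 and at 5.35 to 5.82 in Karpas422, 5.12 to 5.75 in SU-DHL6 and 7.26 to 8.05 in Pfeiffer. Here too the groups were far apart, with a difference of 6.05 (SE 0.0907, limma adjusted p = 2.62e-23). LRRTM4-AS1, an antisense transcript on chromosome 2, lay at 8.66, 9.33 and 10.07, above 4.58 to 5.0 in Karpas422, 4.26 to 4.53 in SU-DHL6 and 3.99 to 4.44 in Pfeiffer.

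CYRIA, a RAC1-binding regulator of actin, averaged 9.52 in WSU-DLCL2 (SD 0.115, n = 6) against 5.54 in Karpas422, 5.36 in SU-DHL6 and 5.15 in Pfeiffer. NEXN, an actin-binding protein best known from muscle, averaged 9.60 (SD 0.12) against 4.29 in Karpas422, 4.35 in SU-DHL6 and 6.35 in Pfeiffer. PCK1, the phosphoenolpyruvate carboxykinase of gluconeogenesis, averaged 8.42 (SD 0.622) against 4.75 in Karpas422, 4.23 in SU-DHL6 and 4.20 in Pfeiffer. Each of these 3 genes was clear of every other-line array, and CYRIA was 15.8-fold above its nearest line. EYA2, a transcriptional coactivator with phosphatase activity, was 9.2-fold above its nearest line, and FAM241A 15.5-fold. CSF2RB, the shared beta chain of the IL-3, IL-5 and GM-CSF receptors, reached 10.17, 10.40 and 10.75 against 7.40 to 7.53 in Karpas422, 5.81 to 6.17 in SU-DHL6 and 5.33 to 6.19 in Pfeiffer. LRIG1, a negative regulator of receptor tyrosine kinases, was 7.8-fold above Karpas422, its nearest line. HDAC9, a class IIa histone deacetylase, was 7.18-fold above SU-DHL6 on the probe set used, while its other 4 probe sets were dim and differed from the mean by 0.06 to 0.24. USP32P2, at 8.16-fold, is a pseudogene of USP32, so its probe set may read its parent gene as well.

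**Figure D1:**
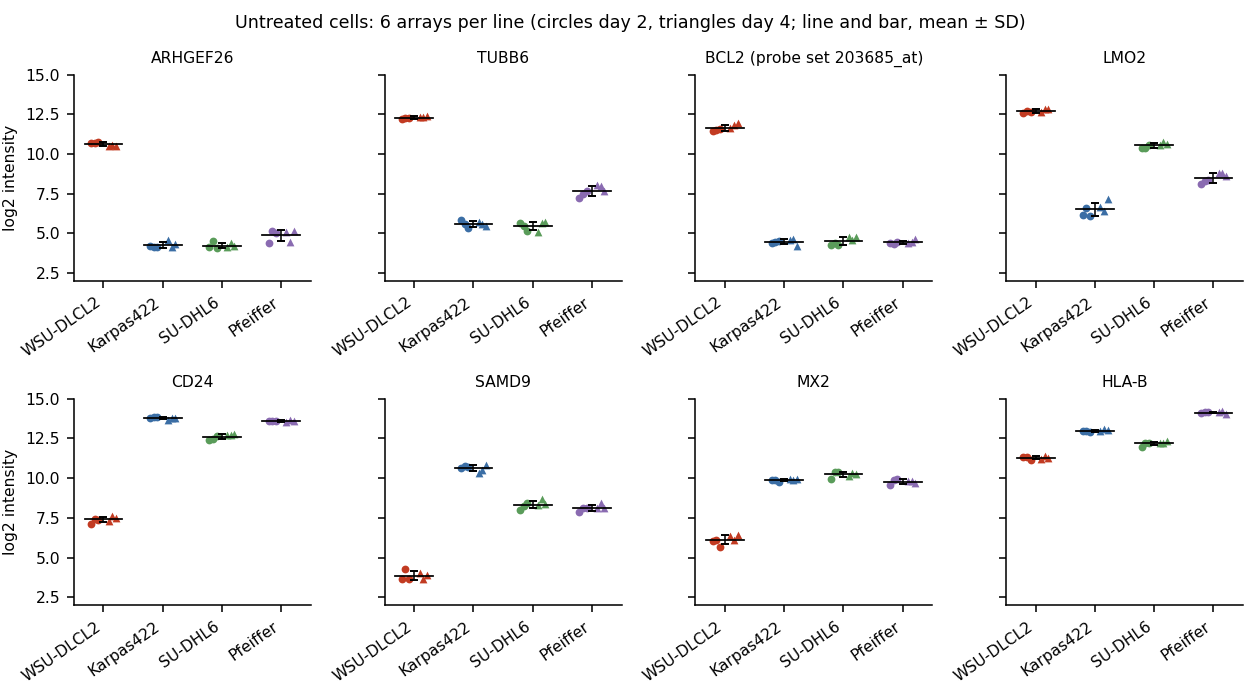
Log2 array intensity of 8 genes in untreated cells of the 4 lines, 6 arrays per line; circles are day 2, triangles day 4, and the line and bar are the mean ± SD. For ARHGEF26, TUBB6, BCL2 (probe set 203685_at) and LMO2 all WSU-DLCL2 arrays lie above all others, and for CD24, SAMD9, MX2 and HLA-B all lie below. The BCL2 probe set was picked after its values were seen. The other probe sets of the gene differed from the mean by 1.64, -0.29 and -0.17, so they did not all share its direction.

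BCL2, the anti-apoptotic protein whose gene is joined to the immunoglobulin heavy chain locus in many germinal centre lymphomas, depended on the probe set. The probe set taken by the rule of highest mean intensity lay at 6.88, 6.98 and 7.17 in WSU-DLCL2 and at 7.71 to 8.11 in Karpas422, 6.62 to 7.40 in SU-DHL6 and 6.54 to 7.21 in Pfeiffer. Probe set 203685_at lay at 11.48, 11.61 and 11.97 in WSU-DLCL2 and at 4.21, 4.50 and 4.64 in Karpas422, 4.27, 4.49 and 4.78 in SU-DHL6, and 4.37, 4.43 and 4.64 in Pfeiffer. On it the difference from the mean of the other lines was 7.19 (SE 0.0636, limma adjusted p = 4.78e-28). The other 3 lines were level with one another there, near the bottom of the scale. A further BCL2 probe set was higher as well, with a difference of 1.64. It averaged 7.91 in WSU-DLCL2 against 6.29 in Karpas422, 6.4 in SU-DHL6 and 6.13 in Pfeiffer. The last probe set differed by -0.17 and that used for the gene by -0.29. BCL2 was 1 of 3 genes with a probe set at least 4-fold from every line while the probe set used for the gene was not called that way; they were picked out after their values were seen. Another was CCDC85A, at 9.67, 9.85 and 10.24 on probe set 235228_at against 3.36 to 3.66 in Karpas422, 3.55 to 3.76 in SU-DHL6 and 3.27 to 3.67 in Pfeiffer. HLA-DQA1 was the third, and is given with the MHC class II genes.

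CD24, a surface glycoprotein carried by B cells until they become plasma cells, was the gene at which WSU-DLCL2 lay farthest below the other lines. Its arrays lay at 7.13, 7.40 and 7.62 in WSU-DLCL2 (lowest, median, highest), against 13.65, 13.79 and 13.88 in Karpas422, 12.40, 12.67 and 12.76 in SU-DHL6, and 13.55, 13.60 and 13.66 in Pfeiffer. All 6 probe sets had the same direction, and no array of the other lines came within reach of a WSU-DLCL2 array. The difference from their mean was -5.93 (SE 0.053, limma adjusted p = 1.19e-27), 61.2-fold. SAMD9, an interferon-inducible antiviral protein, lay at 3.62, 3.79 and 4.30 in WSU-DLCL2 and at 10.33 to 10.81 in Karpas422, 7.99 to 8.69 in SU-DHL6 and 7.87 to 8.42 in Pfeiffer. Its WSU-DLCL2 mean, 3.86, was below the log2 of 4 that served as the minimum for a tested gene, and every other array lay far above it. MX2, an interferon-induced GTPase, lay at 5.69, 6.12 and 6.42 against 9.75 to 9.95 in Karpas422, 9.94 to 10.41 in SU-DHL6 and 9.57 to 9.92 in Pfeiffer, and the 18 other arrays formed a narrow band well above WSU-DLCL2.

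Several of the remaining low genes are lymphoid. TCL1A, a coactivator of AKT expressed in maturing B cells, averaged 6.43 against 9.30 in Karpas422, 12.54 in SU-DHL6 and 9.83 in Pfeiffer, and its array A at day 4, at 7.46, stood above the other WSU-DLCL2 arrays but below every array of the other lines. IL10RA, the ligand-binding chain of the interleukin-10 receptor, averaged 5.80 (SD 0.161) against 8.42 in Karpas422, 9.64 in SU-DHL6 and 11.06 in Pfeiffer. AFF3, a nuclear protein of the AF4 family found in lymphoid cells, averaged 5.69 (SD 0.281) against 8.43 in Karpas422, 8.71 in SU-DHL6 and 9.86 in Pfeiffer. All 3 were below every other-line array. Enzymes and chaperones made up much of the rest: GNPDA1, a glucosamine-6-phosphate deaminase, was 12.6-fold below its nearest line, DNAJC12, an Hsp40 co-chaperone, 11.7-fold, MGLL, monoacylglycerol lipase, 10.2-fold, and MTMR2, a phosphoinositide phosphatase, 7.07-fold. The non-coding RNA MAP3K2-DT was 7.65-fold and the membrane protein LHFPL2 5.85-fold below.

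Germinal centre genes were high in WSU-DLCL2. Of 18 measured members of a list of them, 14 were higher than the mean of the other lines and 0 lower, with a median difference of 1.3, against 20.0% higher, 24.8% lower and a median of -0.037 over all genes. Among the 8707 genes with a mean of at least 8 in some line, 34.3% were higher and 36.2% lower. Both pairs of shares are the background for every list described here, since several lists hold only genes that bright. Against the single lines 12 were higher than Karpas422, 9 than SU-DHL6 and 17 than Pfeiffer, and 6 were higher than each. LMO2, a transcriptional adaptor used as a marker of germinal centre lymphoma, lay at 12.60, 12.68 and 12.83 in WSU-DLCL2 against 6.09, 6.50 and 7.19 in Karpas422, 10.38, 10.56 and 10.78 in SU-DHL6, and 8.10, 8.49 and 8.80 in Pfeiffer. These 4 lines did not overlap, and WSU-DLCL2 was 4.45-fold above SU-DHL6 (difference from the mean 4.18, SE 0.0862, limma adjusted p = 4.95e-21). MEF2C, a transcription factor of germinal centre B cells, lay at 11.25, 11.39 and 11.68, with Karpas422 just below at 10.37 to 10.47 and SU-DHL6 and Pfeiffer far below at 6.12 to 6.60 and 4.73 to 5.66. STAP1, a B cell adaptor protein, averaged 11.71 against 10.55 in Karpas422, 10.72 in SU-DHL6 and 5.52 in Pfeiffer. MME, which encodes CD10, the surface marker of this class, averaged 10.94 against 9.84 in Karpas422, 9.63 in SU-DHL6 and 8.37 in Pfeiffer.

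For other germinal centre members a single comparison line made the difference. RGS13, a brake on chemokine receptor signalling, lay at 12.73, 12.90 and 12.95 in WSU-DLCL2, which overlapped 12.46 to 12.76 in Karpas422 and 12.26 to 13.01 in SU-DHL6, while Pfeiffer lay at 3.0 to 3.70. BCL6, the repressor that holds the program, was near the top of the scale in every line, at means of 12.98 in WSU-DLCL2 and 13.33 in Karpas422, 12.35 in SU-DHL6 and 12.74 in Pfeiffer. Its difference of 0.17 (limma adjusted p = 0.00344) was small and became -0.06 without SU-DHL6. With the line as a random block 4 of the 18 genes stayed higher. In the other arrays the list was again mostly higher, with 13 members at day 6, 16 at LCC and 16 at 10xLCC, comparisons described with the repeats.

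General B cell genes were split between higher and lower. Of 15 tested, 8 were higher and 5 lower than the mean, with a median of 0.36, and 3 were higher and 3 lower than each line. CD22, an inhibitory coreceptor, lay at 12.85, 12.95 and 13.13 in WSU-DLCL2 against 9.98 to 10.52 in Karpas422, 11.60 to 11.98 in SU-DHL6 and 8.94 to 9.75 in Pfeiffer, 2.31-fold above SU-DHL6 and clear of every array. EBF1, a factor that specifies the B lineage, averaged 11.37 against 12.03 in Karpas422, 9.32 in SU-DHL6 and 5.76 in Pfeiffer, so WSU-DLCL2 lay below Karpas422. CD72, a coreceptor, averaged 9.33 against 5.65 in Karpas422, 9.51 in SU-DHL6 and 6.05 in Pfeiffer, with WSU-DLCL2 and SU-DHL6 overlapping. CD24 was on this list too, at the other extreme. The sum of the 15 log2 levels ran from 157.6 to 160.7 on the WSU-DLCL2 arrays, within or near the ranges of Karpas422 (157.9 to 161.1) and SU-DHL6 (158.3 to 163.3) and above Pfeiffer (143.2 to 145.4).

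Immunoglobulin genes differed chain by chain. Lambda light chain constant region IGLC1 was at 13.99, 14.07 and 14.17 in WSU-DLCL2 against 8.35 to 9.0 in Karpas422, 12.97 to 13.36 in SU-DHL6 and 12.54 to 12.77 in Pfeiffer, and heavy chain IGHM at 6.93, 6.99 and 7.12, while SU-DHL6 alone was high for it at 13.91 to 14.18. Constant-region genes of the lambda cluster are near-identical, so the IGLC1 probe set may read several, and 3 of 9 probe sets differed in this direction by at least 0.25. The IGHM difference was -0.18 and not called without SU-DHL6. JCHAIN, which joins antibody units into polymers, averaged 13.26 in WSU-DLCL2 against 8.89 in Karpas422, 12.61 in SU-DHL6 and 13.74 in Pfeiffer, and its difference was 0.09 and not called without Karpas422. VPREB1, part of the surrogate light chain of B cell precursors, lay at 7.84, 8.14 and 8.50 in WSU-DLCL2 against 4.82 to 5.04 in Karpas422, 4.99 to 5.78 in SU-DHL6 and 4.70 to 5.14 in Pfeiffer, with no overlap. Of 13 tested genes of this list 5 were higher and 4 lower (2 lower without SU-DHL6), 3 and 1 against each line.

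Genes of the activated B cell class and of plasma cells were lower than the mean of the other lines, and Pfeiffer carried much of that. Of 20 activated B cell lymphoma genes 2 were higher and 12 lower than the mean (median -0.47), and 0 were higher or lower than each line. Against Karpas422 9 were higher and 3 lower, against SU-DHL6 4 and 8, and against Pfeiffer 1 and 15. Without Pfeiffer in the mean 5 were higher and 9 lower. IRF4, which drives the exit from the germinal centre, lay at 6.60, 6.83 and 7.11 in WSU-DLCL2 and 6.55 to 7.05 in Karpas422, an overlap, but at 8.53 to 9.44 in SU-DHL6 and 10.32 to 10.82 in Pfeiffer. BATF, its partner in transcription, averaged 7.12 against 7.08 in Karpas422, 9.12 in SU-DHL6 and 11.56 in Pfeiffer, and the kinase PIM1 7.87 against 7.60 in Karpas422, 10.61 in SU-DHL6 and 10.84 in Pfeiffer. Both repeated the pattern of IRF4, with WSU-DLCL2 at the level of Karpas422. SH3BP5, an inhibitor of BTK on the same list, went the other way and averaged 10.71 against 5.68 in Karpas422, 6.66 in SU-DHL6 and 11.30 in Pfeiffer. Of 15 plasma cell genes 2 were higher and 10 lower (median -0.48), and 4 were lower than each line. Against Karpas422 5 were higher and 5 lower, against SU-DHL6 4 and 7, and against Pfeiffer 0 and 13. Without Pfeiffer in the mean 4 were higher and 6 lower. XBP1, the factor of antibody secretion, was lowest in WSU-DLCL2, at 7.32, 7.46 and 7.75 against 9.04 to 9.20 in Karpas422, 8.22 to 9.04 in SU-DHL6 and 11.97 to 12.37 in Pfeiffer, on 1 of its 2 probe sets. PRDM1, the master repressor of the plasma cell switch, was not called (difference -0.09, limma adjusted p = 0.574), with every line between 6.84 and 7.84. With the line as a random block 0 of the activated B cell genes and 2 of the plasma cell genes stayed lower.

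**Figure D2:**
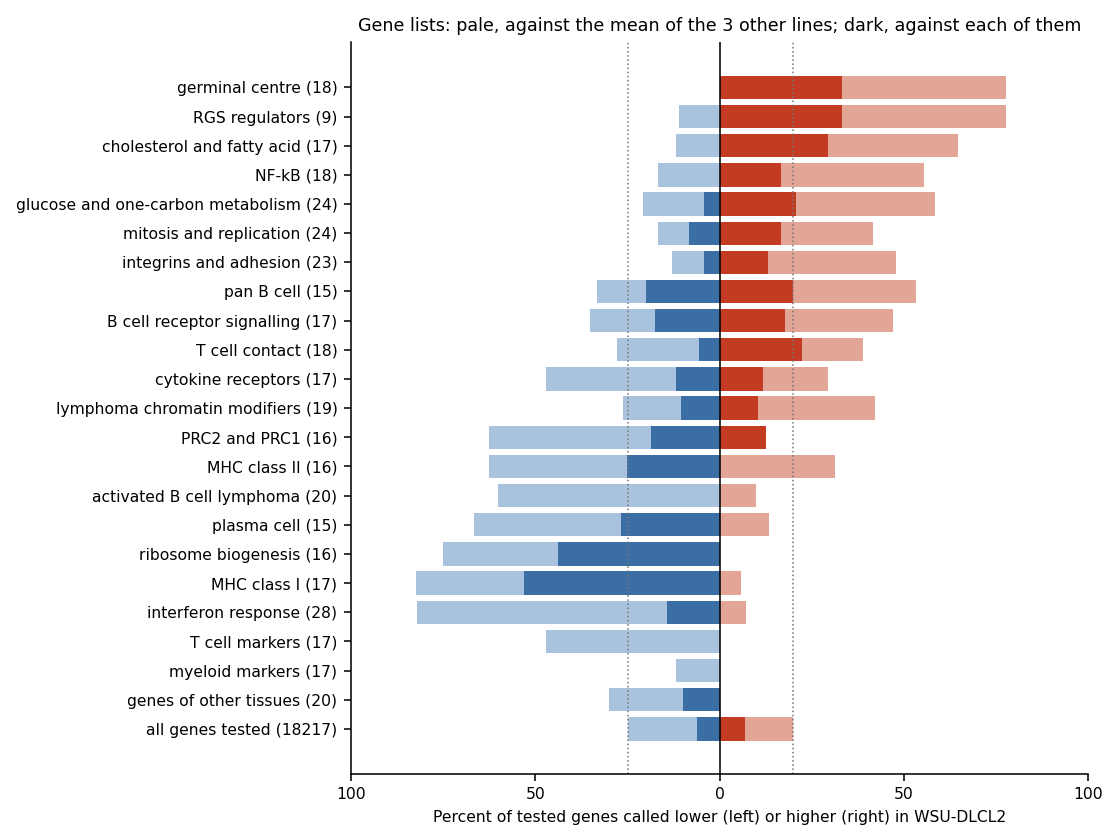
Percent of the tested genes of each list that were called lower (left) or higher (right) in WSU-DLCL2, pale against the mean of the other 3 lines and dark against each of them; the number tested is in brackets and dotted lines give the shares over all 18217 genes, 24.8% and 20.0%. Germinal centre genes, with 14 of 18 higher, and MHC class I genes, with 14 of 17 lower, lie near the ends.

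Among 17 genes of B cell receptor signalling 8 were higher (5 without Karpas422) and 6 lower, 3 each way against every line, with a median of -0.043. SYK, the kinase that starts the cascade, was lower than each line, at 9.10, 9.53 and 9.61 in WSU-DLCL2 against 10.44 to 10.75 in Karpas422, 9.79 to 10.36 in SU-DHL6 and 11.63 to 11.84 in Pfeiffer. PTPN6, the phosphatase SHP-1 that acts below CD22, averaged 10.60 against 11.12 in Karpas422, 8.65 in SU-DHL6 and 8.28 in Pfeiffer. FCGR2B, the inhibitory Fc receptor, averaged 6.64 in WSU-DLCL2 against 12.77 in Karpas422, 8.18 in SU-DHL6 and 5.69 in Pfeiffer, so the low mean difference of -2.24 came from Karpas422 above all. Fc receptor-like genes counted 2 higher and 5 lower of 11, with 0 called against each line. FCRL3 averaged 7.35 against 10.62 in Karpas422, 12.70 in SU-DHL6 and 6.04 in Pfeiffer, and FCRL2 8.34 against 10.97 in Karpas422, 11.12 in SU-DHL6 and 6.16 in Pfeiffer. In both, WSU-DLCL2 stood between Pfeiffer and the other 2 lines.

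Receptors for signals from other cells differed gene by gene. Of 17 cytokine receptor genes 5 were higher and 8 lower (5 without Pfeiffer), with CSF2RB and IL10RA at the ends. IL4R, the interleukin-4 receptor chain, was 10.75, 10.87 and 10.93 in WSU-DLCL2 against 6.63 to 7.10 in Karpas422, 10.03 to 10.59 in SU-DHL6 and 9.82 to 10.17 in Pfeiffer, above all other arrays by a small margin. IL21R, the receptor for the follicular helper cytokine IL-21, averaged 11.15 against 5.20 in Karpas422, 8.18 in SU-DHL6 and 12.14 in Pfeiffer. Among 18 genes of contact with T cells 7 were higher and 5 lower (3 without Pfeiffer), and 4 were higher than each line. SLAM-family receptors led these: CD48 averaged 12.46 against 6.59 in Karpas422, 12.03 in SU-DHL6 and 6.73 in Pfeiffer, SLAMF1 10.59 against 4.98 in Karpas422, 9.56 in SU-DHL6 and 5.89 in Pfeiffer, and LY9 8.55 against 6.05 in Karpas422, 6.26 in SU-DHL6 and 6.26 in Pfeiffer. All 3 were clear of the 18 other arrays, although for CD48 the margin to SU-DHL6 was 1.35-fold. CD84, another SLAM receptor, was lower than each line, at 7.37 against 9.41 in Karpas422, 8.16 in SU-DHL6 and 9.13 in Pfeiffer, so 3 members of the family were higher and 1 lower.

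Memory and activation genes counted 6 higher and 8 lower of 16, and 3 lower without Pfeiffer. CD70, the ligand of CD27, lay at 10.89, 10.97 and 11.31 in WSU-DLCL2 against 9.18 to 9.62 in Karpas422, 7.83 to 8.68 in SU-DHL6 and 8.34 to 8.84 in Pfeiffer, 3.2-fold above the nearest line. The chemokine CCL17 was a mark of Pfeiffer, at 13.56 against 5.96 in WSU-DLCL2, 5.86 in Karpas422 and 6.05 in SU-DHL6. CD44, an adhesion receptor for hyaluronan, was likewise at 11.23 in Pfeiffer alone, against 6.06 in WSU-DLCL2, and the differences of CCL17 and CD44 without Pfeiffer were -0.002 and 0.11. Chemokine and cytokine genes counted 5 higher and 6 lower of 17. CXCL11, a ligand of CXCR3, was higher than each line but dim, at 4.80, 5.20 and 5.49 against 3.82 to 4.07 in Karpas422, 3.45 to 3.73 in SU-DHL6 and 3.50 to 3.63 in Pfeiffer. Homing receptors counted 3 higher and 4 lower of 12, with 0 against each line. GPR18 averaged 10.98 against 11.43 in Karpas422, 9.60 in SU-DHL6 and 5.53 in Pfeiffer. CXCR5, which draws B cells into follicles, averaged 6.68 in WSU-DLCL2 against 5.77 in Karpas422, 9.05 in SU-DHL6 and 10.09 in Pfeiffer. TNF receptor family genes counted 4 higher and 5 lower of 16, near the shares over all genes, with 8 lower without Karpas422, 3 lower without Pfeiffer and 0 either way with the line as a random block.

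Interferon response genes were lower in WSU-DLCL2 than the mean of the other lines, and most steeply against Karpas422. Of 28 tested, 23 were lower and 2 higher than the mean of the other lines, with a median of -1.0. Against Karpas422 27 were lower and 0 higher, against SU-DHL6 5 and 6, and against Pfeiffer 12 and 6. Without Karpas422 in the mean 11 were lower and 6 higher. MX1, an antiviral GTPase, lay at 5.92, 6.14 and 6.63 in WSU-DLCL2, against 13.51, 13.70 and 13.76 in Karpas422, 6.11, 6.18 and 7.36 in SU-DHL6, and 8.39, 8.83 and 9.22 in Pfeiffer. WSU-DLCL2 and SU-DHL6 overlapped at this low level, and Karpas422 was more than 4 log2 units above Pfeiffer. IFI6, an inhibitor of apoptosis induced by interferon, had the same pattern, at 6.34, 6.44 and 6.59 in WSU-DLCL2 against 13.45 to 13.63 in Karpas422, 5.63 to 7.16 in SU-DHL6 and 7.66 to 8.35 in Pfeiffer. IFITM1, which blocks virus entry, averaged 6.57 against 13.30 in Karpas422, 7.06 in SU-DHL6 and 10.54 in Pfeiffer, and its WSU-DLCL2 and SU-DHL6 arrays overlapped.

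Only 4 of the 28 were lower than each line, MX2, IFITM1, IFITM3 and IRF9, 14.3% of the list against 6.08% of all genes. MX2 was the only 1 of these 4 whose arrays overlapped no other line. ISG15, the ubiquitin-like interferon-induced protein, was higher than the mean although most of the list was lower: it averaged 11.88 in WSU-DLCL2 against 14.14 in Karpas422, 7.82 in SU-DHL6 and 8.61 in Pfeiffer. OAS3, which makes the activator of RNase L, was the other member called higher. With the line as a random block 2 of the 28 stayed lower. Some sums of markers of other cell types were also lower in WSU-DLCL2 than in Karpas422. The summed log2 level of 17 T cell markers was 102.7 to 105.9 in WSU-DLCL2 and 111.1 to 112.6 in Karpas422, that of 15 stromal and epithelial markers 88.48 to 92.5 and 94.28 to 95.63, and that of 17 myeloid markers 95.82 to 98.69 and 96.67 to 98.45. The first and the second of these did not overlap and the myeloid sums did. Pfeiffer lay above Karpas422 in the first and the second, at 117.6 to 120.1 and 95.88 to 99.63, so these sums were not highest in Karpas422. The part of these markers in the interferon counts was not tested.

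Promoter sequence was read for these genes because most of the list was lower than the mean of the other lines. Interferon-stimulated genes are switched on by STAT and IRF factors that bind an element with a GAAANNGAAA core. The 250 bases before the start were matched in RefSeq (GRCh38.p14) for 14200 of the 18217 genes, and GAAANNGAAA, searched on both strands with overlaps counted, stood in 2.44% of them. It stood in 16 of the 22 matched interferon list promoters (72.7%) and in 13 of the 17 whose genes were lower in WSU-DLCL2 (76.5%). Promoters of genes at least 2-fold above every line held it in 3 of 129 (2.33%) and those of genes at least 2-fold below in 1 of 81 (1.23%), which was SAMD9. The sequences are shown 5′ to 3′ on the gene's strand with the core in capitals. SAMD9 and IFITM1 were lower than each line, IFI6 was at the level of SU-DHL6, and ISG15 was higher than the mean. The windows are chr7:93117980-93118229 (minus strand) for SAMD9, chr1:27672193-27672442 (minus) for IFI6, chr11:313790-314039 (plus) for IFITM1 and chr1:1013247-1013496 (plus) for ISG15.
SAMD9: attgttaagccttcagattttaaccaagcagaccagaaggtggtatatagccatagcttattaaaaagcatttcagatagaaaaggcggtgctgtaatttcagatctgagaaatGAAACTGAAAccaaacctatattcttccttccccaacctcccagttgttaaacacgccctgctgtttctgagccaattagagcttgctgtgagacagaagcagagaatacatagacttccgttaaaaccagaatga
IFI6: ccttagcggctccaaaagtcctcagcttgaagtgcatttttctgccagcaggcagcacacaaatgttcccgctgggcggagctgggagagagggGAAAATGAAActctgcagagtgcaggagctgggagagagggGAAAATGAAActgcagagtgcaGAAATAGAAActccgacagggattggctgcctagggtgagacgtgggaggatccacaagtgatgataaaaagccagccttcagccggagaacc
IFITM1: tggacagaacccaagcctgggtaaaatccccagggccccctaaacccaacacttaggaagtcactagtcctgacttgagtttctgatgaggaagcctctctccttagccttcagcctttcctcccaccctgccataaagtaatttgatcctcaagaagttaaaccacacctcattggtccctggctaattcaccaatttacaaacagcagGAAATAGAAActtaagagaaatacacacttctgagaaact
ISG15: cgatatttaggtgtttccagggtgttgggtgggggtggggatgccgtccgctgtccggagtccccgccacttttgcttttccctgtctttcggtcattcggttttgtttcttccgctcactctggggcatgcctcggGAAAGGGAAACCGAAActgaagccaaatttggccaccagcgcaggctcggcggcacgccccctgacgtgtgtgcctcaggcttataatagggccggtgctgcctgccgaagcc
IFI6 holds 3 copies of the core, ISG15 2 that overlap, and SAMD9 and IFITM1 1 each. The core is thus present in SAMD9 and IFITM1, lower than each line, and in ISG15, whose arrays lay above those of SU-DHL6 and Pfeiffer. Of the other list members lower than each line, IFITM3 held it, IRF9 did not and MX2 was not matched. MX1, at -3.46 from the mean of the other lines, did not hold it either. A match is a description of the letters in this window only.

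**Figure D3:**
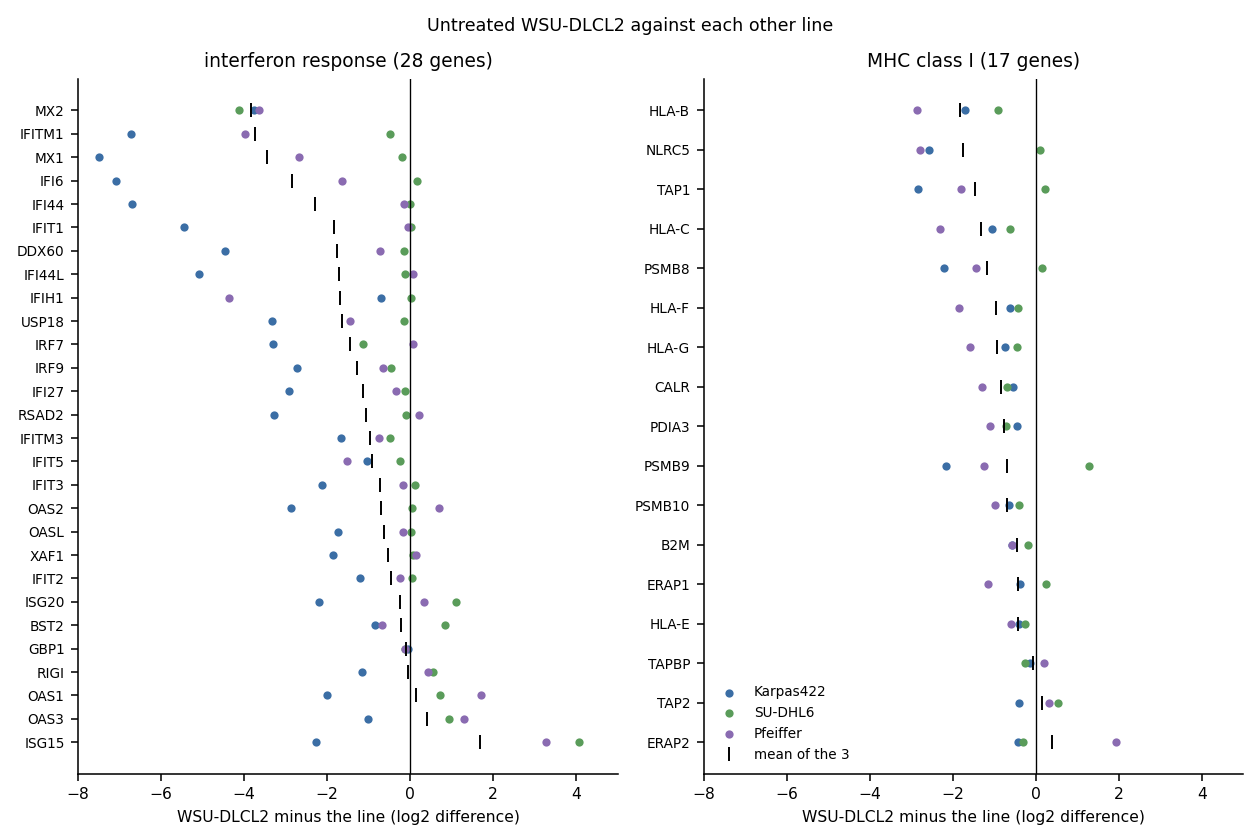
Log2 difference of untreated WSU-DLCL2 from each other line (coloured points) and from their mean (black tick) for 28 interferon response genes and 17 MHC class I genes, 6 arrays per line. For most interferon genes the Karpas422 point lies farthest to the left, down to -7.50 for MX1, while MHC class I genes lie closer together, with 14 of 17 called lower than the mean.

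MHC class I genes, which display peptides to cytotoxic T cells, were low against more than 1 line. Of 17 tested, 14 were lower and 1 higher than the mean (median -0.76), and 9 were lower than each line, 52.9% against 6.08% of all genes. The number lower was 16 against Karpas422, 10 against SU-DHL6 and 14 against Pfeiffer, and it stayed at 13 or 14 when any line was left out of the mean. HLA-B lay at 11.16, 11.29 and 11.41 in WSU-DLCL2, against 12.93, 12.97 and 13.07 in Karpas422, 11.98, 12.20 and 12.34 in SU-DHL6, and 14.06, 14.15 and 14.20 in Pfeiffer. No array of WSU-DLCL2 reached any of the others, and the difference was -1.82 (SE 0.0495, limma adjusted p = 4.9e-19). HLA-C had the same order, at 11.61, 11.74 and 11.78 against 12.70 to 12.81 in Karpas422, 12.14 to 12.47 in SU-DHL6 and 13.95 to 14.06 in Pfeiffer. HLA genes share long stretches of sequence and differ between alleles, so their probe sets may read one another and read alleles unequally. Genes outside the HLA family were lower as well: B2M, the shared light chain, differed from the mean by -0.44, and PDIA3 and CALR, chaperones of peptide loading, by -0.76 and -0.85, each lower than each line. On the day 6 arrays B2M was not called (0.11) and PDIA3 was higher (0.25). B2M and PDIA3 lie on chromosome 15 and the HLA genes on chromosome 6, both described with the chromosomes.

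The transporter and its regulator followed 2 of the 3 lines only. TAP1, which carries peptides into the endoplasmic reticulum, averaged 8.42 against 11.27 in Karpas422, 8.20 in SU-DHL6 and 10.21 in Pfeiffer, and NLRC5, the transactivator of class I genes, 6.10 against 8.67 in Karpas422, 5.98 in SU-DHL6 and 8.88 in Pfeiffer. For both, the WSU-DLCL2 and SU-DHL6 arrays overlapped. With the line as a random block 5 of the 17 genes stayed lower. MHC class II genes counted 5 higher and 10 lower of 16 (median -0.24), with 4 lower than each line, and 0 stayed higher and 2 lower with the line as a random block. HLA-DMA, which edits class II peptides, was 11.0 against 11.99 in Karpas422, 11.92 in SU-DHL6 and 12.33 in Pfeiffer, below every other array. HLA-DRB4 averaged 7.30 against 10.22 in Karpas422, 11.40 in SU-DHL6 and 7.65 in Pfeiffer. HLA-DQA1 differed by probe set: the one used for the gene averaged 10.73 against 6.94 in Karpas422, 6.82 in SU-DHL6 and 12.50 in Pfeiffer, while probe set 213831_at lay at 4.06, 4.19 and 4.51 in WSU-DLCL2 against 10.15 to 10.39 in Karpas422, 10.33 to 10.93 in SU-DHL6 and 11.29 to 11.64 in Pfeiffer, and 236203_at averaged 3.73 against 6.89 in Karpas422, 8.14 in SU-DHL6 and 9.65 in Pfeiffer. Probe sets 213831_at and 236203_at were picked after their values were seen, and no direction is given for the gene.

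NF-kB genes counted 10 higher and 3 lower of 18 (median 0.26), but 6 higher and 9 lower without Karpas422, and 0 either way with the line as a random block. NFKB1, the p50 subunit, was higher than each line at 9.95, 10.08 and 10.16 against 8.16 to 8.37 in Karpas422, 8.93 to 9.48 in SU-DHL6 and 9.57 to 9.91 in Pfeiffer. TNFAIP3, the brake A20, averaged 8.79 against 6.14 in Karpas422, 8.15 in SU-DHL6 and 8.82 in Pfeiffer, level with Pfeiffer. Genes of the BCL2 family and apoptosis counted 6 higher (2 without Karpas422) and 8 lower of 19, with 0 against each line on the probe sets used. BIK, a BH3-only killer, averaged 9.37 against 5.92 in Karpas422, 10.22 in SU-DHL6 and 9.73 in Pfeiffer, and its direction turned without Karpas422, at -0.60. BAX averaged 9.94 against 11.13 in Karpas422, 10.75 in SU-DHL6 and 9.99 in Pfeiffer, and PMAIP1, which encodes NOXA, 10.83 against 9.17 in Karpas422, 11.14 in SU-DHL6 and 10.29 in Pfeiffer. PMAIP1 was not called without Karpas422 (0.12). In none of these 3 was WSU-DLCL2 at an end of the 4 lines by a clear margin.

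FAS, the death receptor, was lower than the mean, at 6.51 against 10.51 in Karpas422, 6.40 in SU-DHL6 and 7.98 in Pfeiffer. ZMAT3, an RNA-binding protein, lay at 9.81, 9.98 and 10.36 in WSU-DLCL2 against 7.51 to 7.79 in Karpas422, 8.05 to 8.65 in SU-DHL6 and 8.12 to 8.39 in Pfeiffer, 3.25-fold above its nearest line. G1 control genes counted 6 higher and 7 lower of 20. CDK inhibitors CDKN1B and CDKN2D were higher than each line, at 10.10 against 9.44 in Karpas422, 8.25 in SU-DHL6 and 8.29 in Pfeiffer, and at 9.08 against 7.36 in Karpas422, 7.25 in SU-DHL6 and 6.92 in Pfeiffer, the latter on 1 of 2 probe sets. RB1, the retinoblastoma protein they act through, was lower than each line, at 9.23, 9.53 and 9.85 against 10.40 to 10.98 in Karpas422, 9.79 to 10.58 in SU-DHL6 and 10.75 to 11.24 in Pfeiffer. CDKN2A averaged 11.10 against 11.03 in Karpas422, 11.34 in SU-DHL6 and 10.19 in Pfeiffer and its chromosome 9 neighbour MTAP 9.09 against 8.54 in Karpas422, 10.10 in SU-DHL6 and 9.27 in Pfeiffer. Both were expressed in all 4 lines, and their differences turned sign when 1 line was left out, to -0.08 for CDKN2A without Pfeiffer and 0.18 for MTAP without SU-DHL6.

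MYC was not called (difference 0.08, limma adjusted p = 0.386), at 11.28, 11.98 and 12.29 in WSU-DLCL2 against 12.11 to 12.31 in Karpas422, 11.54 to 11.85 in SU-DHL6 and 11.40 to 11.64 in Pfeiffer. Genes of the MYC network counted 5 higher and 5 lower of 13. MXD3, a MAX partner, was 9.91 against 8.98 in Karpas422, 9.34 in SU-DHL6 and 9.42 in Pfeiffer, and FBXW7, the ligase that degrades MYC, 9.22 against 8.49 in Karpas422, 8.76 in SU-DHL6 and 7.98 in Pfeiffer. Ribosome biogenesis genes were lower: 12 of 16 were lower and 0 higher (median -0.40), and 7 were lower than each line. The shares lower were 24.8% over all genes and 36.2% among those with a mean of at least 8 in some line. PNO1, a factor of 40S assembly, was 10.45 against 12.05 in Karpas422, 11.29 in SU-DHL6 and 11.08 in Pfeiffer, and BYSL, another, 10.04 against 10.46 in Karpas422, 11.62 in SU-DHL6 and 10.48 in Pfeiffer. The day 6 arrays did not repeat this, with 2 lower and 4 higher, and with the line as a random block 0 stayed lower. Mitosis and replication genes counted 10 higher and 4 lower of 24 (median 0.045), and 9 lower without Pfeiffer. All are bright, and of genes with a mean of at least 8 in some line 34.3% were higher and 36.2% lower. In the arrays of each inhibitor dose at days 2 and 4 all 24 were lower, and at day 6 of DMSO 9 were higher and 5 lower. CDK1 lay at 12.64, 12.68 and 12.90 against 11.88 to 12.19 in Karpas422, 12.02 to 12.47 in SU-DHL6 and 11.78 to 12.06 in Pfeiffer and CCNA2 at 11.36, 11.52 and 11.69 against 11.0 to 11.33 in Karpas422, 10.63 to 10.93 in SU-DHL6 and 10.69 to 11.05 in Pfeiffer, narrow margins clear of the other arrays (for CCNA2 on 1 of 2 probe sets), while CDC6, which loads the replicative helicase, was lower than each line.

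Genes of PRC2, the complex that holds EZH2, the inhibitor's target, and of PRC1, its partner in gene repression, counted 2 higher and 10 lower of 16 (median -0.37). EZH2 itself was not called, at 10.40, 10.79 and 10.87 in WSU-DLCL2 against 10.73 to 10.81 in Karpas422, 10.88 to 11.19 in SU-DHL6 and 10.47 to 10.81 in Pfeiffer (difference -0.10, limma adjusted p = 0.196). SU-DHL6 lay above every array of the other 3 lines. PHF19, which guides PRC2 to chromatin, lay at 9.87, 10.15 and 10.27 against 10.99 to 11.25 in Karpas422, 10.74 to 11.18 in SU-DHL6 and 10.76 to 11.14 in Pfeiffer. MTF2, a guide of the same family, lay at 9.95, 10.05 and 10.18 against 11.17 to 11.22 in Karpas422, 10.48 to 10.97 in SU-DHL6 and 10.61 to 10.79 in Pfeiffer, so both were below every other array. EED, a core subunit, averaged 10.91 against 12.69 in Karpas422, 11.25 in SU-DHL6 and 10.87 in Pfeiffer, level with Pfeiffer, and was not called without Karpas422 (-0.15). CBX6, a PRC1 reader, was higher than each line at 10.25 against 9.90 in Karpas422, 9.94 in SU-DHL6 and 9.13 in Pfeiffer. With the line as a random block 2 of the 10 stayed lower. Chromatin modifiers often mutated in lymphoma counted 8 higher and 5 lower of 19. TET2, a DNA hydroxylase, was lower than each line at 6.73 against 8.35 in Karpas422, 7.16 in SU-DHL6 and 8.23 in Pfeiffer, and DNMT3B, a DNA methyltransferase, averaged 6.05 against 6.02 in Karpas422, 7.60 in SU-DHL6 and 8.49 in Pfeiffer.

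Developmental regulators counted 9 higher and 8 lower of 25, and 4 lower without Pfeiffer. LEF1, the nuclear partner of beta-catenin, averaged 10.87 against 5.08 in Karpas422, 10.36 in SU-DHL6 and 10.37 in Pfeiffer, so only Karpas422 lacked it. ID3, an inhibitor of E proteins, averaged 10.81 against 6.64 in Karpas422, 10.14 in SU-DHL6 and 8.61 in Pfeiffer. HOXC4 was lower than each line at 6.43, 6.93 and 7.07 against 8.98 to 9.29 in Karpas422, 8.12 to 8.37 in SU-DHL6 and 8.77 to 8.97 in Pfeiffer, and SATB1, a chromatin organiser of lymphocytes, was higher than each at 6.73, 7.47 and 8.12 against 4.94 to 5.57 in Karpas422, 5.59 to 5.99 in SU-DHL6 and 5.79 to 6.20 in Pfeiffer. RGS regulators of G protein signalling counted 7 higher and 1 lower of 9 (median 0.93), against 20.0% and 24.8% over all genes. Of these 3 were higher than each line, and with the line as a random block 2 stayed higher. RGS10 was higher than each line at 11.76, 11.80 and 11.87 against 10.75 to 10.92 in Karpas422, 9.60 to 10.15 in SU-DHL6 and 10.86 to 11.05 in Pfeiffer. MAPK feedback genes counted 10 higher and 5 lower of 19. IER2, an immediate early gene, lay at 12.04, 12.29 and 12.71 in WSU-DLCL2 against 9.03 to 9.62 in Karpas422, 10.79 to 11.15 in SU-DHL6 and 9.56 to 9.89 in Pfeiffer, and DUSP4, a MAPK phosphatase, was high in Karpas422 alone, at 10.21 against 5.49 in WSU-DLCL2.

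Glucose and one-carbon genes counted 14 higher and 5 lower of 24 (median 0.28), against 20.0% and 24.8% over all genes, and with the line as a random block 2 stayed higher and 0 lower. ENO2, an enolase, lay at 10.17, 10.27 and 10.50 in WSU-DLCL2 against 9.18 to 9.58 in Karpas422, 5.37 to 5.92 in SU-DHL6 and 8.92 to 9.30 in Pfeiffer, and PDK1, which blocks pyruvate entry into mitochondria, averaged 10.64 against 10.18 in Karpas422, 8.78 in SU-DHL6 and 8.56 in Pfeiffer. PHGDH, the first enzyme of serine synthesis, averaged 11.79 against 7.03 in Karpas422, 11.93 in SU-DHL6 and 11.61 in Pfeiffer, so Karpas422 alone was low and the gene was not called without it (0.02), while PSPH, the last, was higher than each line at 9.96 against 8.97 in Karpas422, 9.18 in SU-DHL6 and 8.74 in Pfeiffer. Cholesterol and fatty acid genes counted 11 higher and 2 lower of 17 (median 0.26), and with the line as a random block 1 stayed higher and 0 lower. ABCA1, the cholesterol exporter, lay at 9.21, 9.55 and 9.80 against 6.12 to 6.83 in Karpas422, 6.31 to 7.47 in SU-DHL6 and 7.88 to 8.46 in Pfeiffer, and SREBF2, the activator of cholesterol synthesis, averaged 10.09 against 9.54 in Karpas422, 9.31 in SU-DHL6 and 9.62 in Pfeiffer. At day 6 the list gave 4 higher and 6 lower. Glutathione and detoxification genes counted 7 higher and 7 lower of 20, with GSTM1 and GSTM2, near-identical transferases whose probe sets may read each other, 1.8-fold and 1.79-fold above the nearest line. MGST3 was 2.75-fold below its nearest line, with 1 of 3 probe sets lower by at least 0.25.

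Adhesion genes counted 11 higher (7 without Pfeiffer) and 3 lower of 23. ITGB2, the beta chain of LFA-1, lay at 11.09, 11.13 and 11.22 in WSU-DLCL2 against 10.63 to 10.82 in Karpas422, 5.23 to 6.16 in SU-DHL6 and 6.20 to 7.17 in Pfeiffer, and ITGA4, a chain of VLA-4, averaged 8.75 against 10.12 in Karpas422, 7.89 in SU-DHL6 and 4.86 in Pfeiffer, with a difference of -0.25 without Pfeiffer. Autosomal cancer testis genes counted 2 higher and 3 lower of 15 tested. TDRD1, a germ cell protein of the piRNA pathway, lay at 6.96, 7.53 and 7.87 in WSU-DLCL2 against 4.0 to 4.67 in Karpas422, 4.41 to 4.71 in SU-DHL6 and 4.11 to 4.61 in Pfeiffer, with no overlap.

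No tested gene on the lists of T cell, myeloid, or stromal and epithelial markers, or of genes of other tissues, was called higher in WSU-DLCL2. Of 17 T cell markers 0 were higher and 8 lower than the mean, of 17 myeloid markers 0 and 2, of 15 stromal and epithelial markers 0 and 3, and of 20 genes of other tissues 0 and 6. The sum of the T cell markers was 102.7 to 105.9 on the WSU-DLCL2 arrays, against 103.2 to 106.8 in SU-DHL6, 111.1 to 112.6 in Karpas422 and 117.6 to 120.1 in Pfeiffer. Several of the lower calls went with a high level in 1 other line: CD8A averaged 13.36 in Pfeiffer and 6.06 in WSU-DLCL2, CD3G 8.96 in Karpas422 and 4.97 in WSU-DLCL2, and EPCAM 11.93 in Pfeiffer and 3.87 in WSU-DLCL2. DCN, a stromal proteoglycan, was at 8.75 in WSU-DLCL2 against 13.73 in Karpas422, 7.03 in SU-DHL6 and 7.03 in Pfeiffer, below the mean through Karpas422 with a difference of 1.72 without that line.

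Genes that differed lay next to each other on some chromosomes. Among 8707 genes with a mean of at least 8 in some line, 34.3% were higher and 36.2% lower than the other-line mean. On chromosome 8 61.3% of 328 genes were higher, with median differences of 0.28, 0.25 and 0.30 from Karpas422, SU-DHL6 and Pfeiffer, so the shift held against each line. On chromosome 4 54.7% of 309 were higher, but the medians were -0.049, 0.47 and 0.19, and it was not seen against Karpas422. On chromosome 6 50.9% of 501 genes and on chromosome 15 48.5% of 307 were lower. The medians for chromosome 15 were -0.19, -0.076 and -0.097 and those for chromosome 6 -0.055, -0.38 and -0.035, so the latter was mostly against SU-DHL6.

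Runs of neighbours, all called the same way against each line, gave the finest view. The longest was 13 genes on chromosome 15, from ZNF106 to TP53BP1, lower with a median difference of -0.78, and with 8 of the 13 below all other arrays. It holds UBR1, a ubiquitin ligase, at 8.98 against 9.91 in Karpas422, 9.65 in SU-DHL6 and 9.67 in Pfeiffer, and TP53BP1, a DNA repair protein, at 9.26 against 10.47 in Karpas422, 9.77 in SU-DHL6 and 10.28 in Pfeiffer. On chromosome 13 7 genes from SUCLA2 to CDADC1 were lower with a median of -1.16. RB1 lies in this run, and RCBTB2, next in the run, was at 7.02, 7.08 and 7.40 against 9.90 to 10.13 in Karpas422, 9.17 to 9.83 in SU-DHL6 and 8.84 to 9.23 in Pfeiffer, on 1 of its 2 probe sets. On chromosome 6 6 genes from H1-2 to BTN3A1 were lower with a median of -1.13, in the histone and butyrophilin cluster next to the MHC. BTN3A2, a butyrophilin seen by gamma delta T cells, averaged 7.02 against 9.25 in Karpas422, 8.49 in SU-DHL6 and 8.84 in Pfeiffer.

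The 3 runs each way that are described were taken by length and then in chromosome order. Higher runs of 6 genes also lay on chromosome 7, from RALA to MRPL32 with a median of 0.61, and on chromosome 8, from ADAM28 to DPYSL2 with a median of 1.42. The 8 genes from UBXN7 to SENP5 on chromosome 3 were higher with a median of 0.716; PAK2, a kinase among them, averaged 11.11 against 10.20 in Karpas422, 9.90 in SU-DHL6 and 10.26 in Pfeiffer. The 7 genes from MFHAS1 to MTMR9 on chromosome 8 were higher with a median of 1.08, with MFHAS1 at 11.88, 12.09 and 12.23 against 11.12 to 11.28 in Karpas422, 10.11 to 10.46 in SU-DHL6 and 8.01 to 8.58 in Pfeiffer. A further 6 on chromosome 3, from IGSF10 to MME, had a median of 1.39. That run holds ARHGEF26, the gene of largest difference, as well as the germinal centre marker MME, MBNL1, a splicing regulator (12.29 against 11.50 in Karpas422, 11.91 in SU-DHL6 and 10.93 in Pfeiffer), and RAP2B, a small GTPase (11.16 against 9.82 in Karpas422, 10.65 in SU-DHL6 and 9.61 in Pfeiffer). DNA copy number was not measured, and its part in these runs was not tested. The order of genes is that of RefSeq GRCh38.p14.

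**Figure D4:**
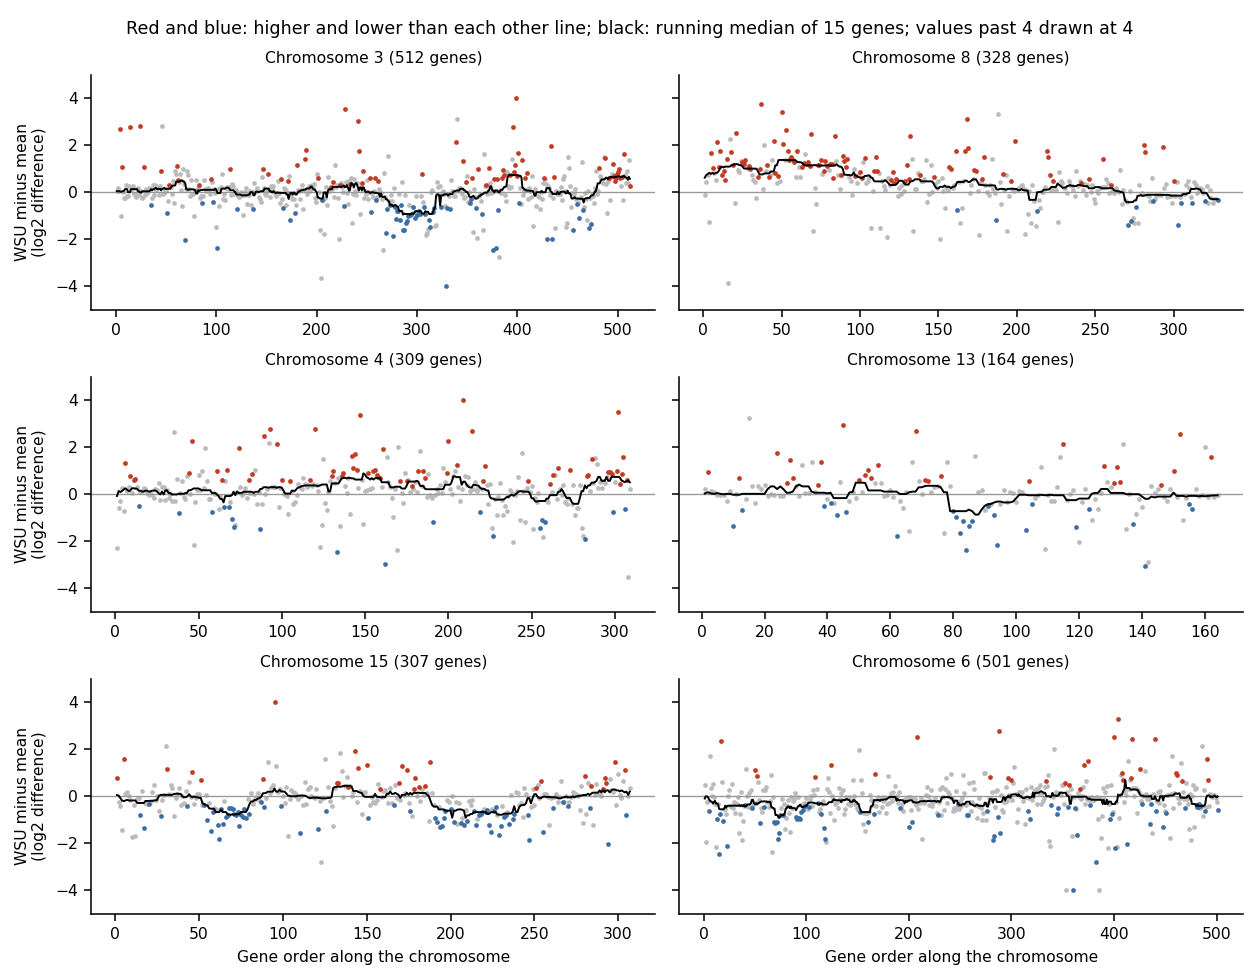
Log2 difference of untreated WSU-DLCL2 from the mean of the other 3 lines for genes in their order along 6 chromosomes; red and blue points are genes higher and lower than each other line, the black line is a running median of 15 genes, and values past 4 are drawn at 4. The running median lies above 0 over much of chromosome 8 and dips below 0 in 2 stretches of chromosome 15 and 1 of chromosome 13.

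The differences were looked for again in arrays that the comparison had not used. At day 6 of DMSO 3632 genes (19.9%) were higher and 4268 (23.4%) lower than the mean of the other lines. At days 2 and 4 these were 4267 (23.4%) and 5749 (31.6%) among arrays of the LCC dose, and 4214 (23.1%) and 5402 (29.7%) among those of 10xLCC. Of the 1249 genes higher than each line, 1061 were higher at day 6, 1158 at LCC and 1094 at 10xLCC. Of the 1108 lower ones 858, 1077 and 1011 were lower. The 187 and 95 genes at least 2-fold from every line were called the same way almost in full, 179, 185 and 182 of the former and 95, 95 and 94 of the latter. These arrays come from the same 4 lines, so they repeat the measurement and not the choice of lines. Karpas422 at day 6 had beta-actin 3'/5' ratios of 1.019 to 1.462 against -0.213 to 0.005 in the other lines, and the part of this in the day 6 counts was not tested. The neighbour runs recurred too: 12 of the 13 chromosome 15 genes were lower at day 6 and 13 at each dose, and all 7 genes of the chromosome 8 run were higher in each set.

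The 10xLCC dose was then set against DMSO in WSU-DLCL2 alone, at day 6, on arrays not used above. Over all genes 3091 (17.0%) rose and 3489 (19.2%) fell. Among the 95 genes at least 2-fold below every line 48 rose (50.5%) and 18 fell (18.9%). Among the 187 genes at least 2-fold above every line 78 rose (41.7%) and 51 fell (27.3%). Both classes thus rose more often than they fell, and both differ from the whole table in level: their median WSU-DLCL2 levels were 6.81 and 9.45 against 7.19 over all genes. With no distance required 289 of the 1108 lower genes rose (26.1%) and 374 fell (33.8%), and 400 of the 1249 higher genes rose (32%) and 360 fell (28.8%). Centring the arrays on bright genes gave a median response over all genes of 0.20 in place of 0.02, with 5829 genes that rose and 2366 that fell. Under it 59 of the 95 rose and 11 fell, 100 of the 187 rose and 39 fell, 427 of the 1108 rose and 268 fell, and 600 of the 1249 rose and 253 fell, so the direction of the 1108 depended on the scaling.

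Among the genes far below every line in untreated WSU-DLCL2, several of those already named rose. CD24 rose by 2.87 (SE 0.111, limma adjusted p = 3.01e-16), short of its distance of -5.22 from the nearest untreated line. DNAJC12 rose by 3.54, TCL1A by 3.39, AFF3 by 2.89 and IL10RA by 2.62, where the untreated distances to the nearest line were -3.55, -2.87, -2.74 and -2.61. MGLL, MTMR2 and LHFPL2 rose by 1.76, 1.72 and 1.19. In contrast SAMD9, GNPDA1 and MX2 were not called, at -0.12, -0.06 and 0.03. The low genes therefore included both genes that rose and genes not called. HLA-B and HLA-C rose by 1.41 and 1.11, and NLRC5 by 1.48, whereas TAP1 fell by 0.51. Of the highest genes ARHGEF26, LRRTM4-AS1 and TUBB6 fell, with responses of -1.0, -1.98 and -0.67, and CSF2RB rose by 1.03. CNR1, the cannabinoid receptor, was not called in untreated cells against the mean (difference -0.07, limma adjusted p = 0.494) and rose by 5.01. Its untreated mean was 6.97 against 5.60 in Karpas422, 10.27 in SU-DHL6 and 5.27 in Pfeiffer, so lines on either side offset each other. Its other probe sets differed from the mean by -0.47, -0.25 and -0.38. It was called lower with the mean of probe sets (-0.29) and at day 2 alone (-0.76).

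**Figure D5:**
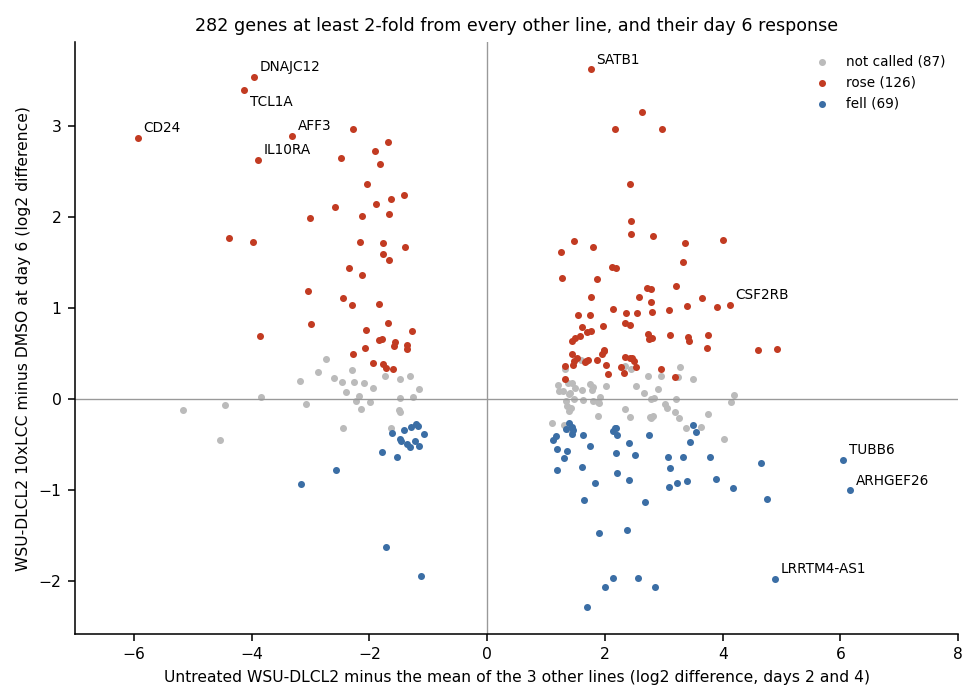
The 282 genes at least 2-fold from every other line before treatment: untreated difference of WSU-DLCL2 from the mean of the other lines (x axis, log2, 6 arrays per line) against its own change with 10xLCC at day 6 (y axis, log2, 3 arrays per group). Of these, 126 rose (red), 69 fell (blue) and 87 were not called (grey); CD24, TCL1A and DNAJC12 lie at the upper left and ARHGEF26 and TUBB6 at the lower right.

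CG pairs were counted because PRC2 commonly sits at promoters rich in them. At least 10 CG pairs in the 250 bases before the start were found in 70.7% of the 14200 matched genes. The share was 73.6% in the genes 2-fold above every line and 81.5% in those 2-fold below (66 of 81). Among genes that rose with 10xLCC it was 87.8% for the low (36 of 41) and 72.5% for the high (37 of 51). In the interferon list the share was 36.4%. CD24, the lowest gene and one that rose, is shown 5′ to 3′ with its 20 CG pairs in capitals, from RefSeq (GRCh38.p14), chr6:106975628-106975877 on the minus strand.
CD24: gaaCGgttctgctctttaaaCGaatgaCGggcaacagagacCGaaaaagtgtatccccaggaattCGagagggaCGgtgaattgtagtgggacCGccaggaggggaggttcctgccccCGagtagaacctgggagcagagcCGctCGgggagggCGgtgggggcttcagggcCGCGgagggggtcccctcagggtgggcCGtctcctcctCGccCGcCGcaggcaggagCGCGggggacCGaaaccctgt
No motif of the interferon type stands in this window, and the SAMD9 window, shown earlier, holds 3 CG pairs. Other low genes that rose lay on both sides: TCL1A held 23, MTMR2 15 and LHFPL2 38, but DNAJC12 held 1, AFF3 2 and IL10RA 2. GNPDA1, whose response was not called, held 25. The counts describe letters in a fixed window, and binding or methylation there was not measured.

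Few genes were called for a change of these differences with day. With 3 arrays per group, a gene not called in this test is not shown to be unchanged. The difference of WSU-DLCL2 from the other lines at day 4 minus that at day 2 was called for 407 genes (2.23%), 70 upward and 337 downward. RGS1, an activation gene of B cells, lay at 5.81, 6.07 and 6.87 on the WSU-DLCL2 arrays of day 2 and at 9.63, 9.64 and 9.75 on those of day 4. CD69, an early activation marker, lay at 3.92, 4.07 and 4.09 and 6.77, 6.80 and 6.71, and EGR3, an immediate early factor, at 5.03, 4.97 and 5.20 and 7.36, 6.94 and 7.55. These 3 shifted upward together, with every day 4 array above every day 2 array. PCK1 and LRRTM4-AS1, among the highest genes of the line, moved upward by 1.11 and 0.82, and MYC moved by -0.73. ARHGEF26, TUBB6, CD24, SAMD9, MX2 and HLA-B were not called in this test.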

How the data were processed

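Affymetrix arrays of 4 lymphoma lines gave 1 intensity per probe set. The deposited intensity values were made by the authors with GCRMA, per the submitters' processing notes (version not given in the sources used here). They are linear, from 5.79 to 31846, not log2, so log2 was taken here with a pseudocount of 0.

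Of 54675 probe sets 41097 had 1 gene, 1801 several and 11777 none. Of 19777 genes 19735 matched RefSeq (GRCh38.p14). Each of 18987 autosomal genes was read from its brightest probe set by mean over 108 arrays, and 18217 with log2 of at least 4 on 3 of the 24 arrays were tested. limma 3.58.1 (R 4.3.3) fitted 8 line-by-day groups, days and comparison lines weighing equally, with a Benjamini-Hochberg adjusted p below 0.05. Tested on simulated data of 18217 genes, 46 of 50 genes changed by 0.5 and 50 of 50 changed by 1 were called. The simulated lines shared 1 mean per gene and had independent noise, so this covers array noise and not differences between lines. Precision is limited by 6 arrays per line.

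Genes named were the 12 farthest from the nearest line each way, among genes called against each line whose arrays did not overlap and whose higher side averaged at least log2 8, up to 4 called members per list (37 lists) and of neighbour runs, the strongest day shifts, and fixed markers. Members and lists were chosen with earlier results of these data known. Arrays of 1 letter deviated together little (mean correlation 0.0401, over 0.1 in 31 of 84 pairs), so letters were not treated as pairs. Alternatives changed the filter, probe set, pseudocount, normalization, variance model, day, RNA quality term, comparison lines, arrays and threshold. Further alternatives, the probe set with the highest line mean and leaving out 3 arrays, were chosen after seeing the data.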

Additional observations from a re-analysis of the deposited data

Results flagged for a closer look

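Array A of WSU-DLCL2 at day 4 stood apart from the other 5 arrays of its line for 12 of the 214 named genes, and other arrays did for 2. Chance marks about 1 in 20 groups in such a test. On this array the level was lower than the nearest other array for CBX6 (9.96, nearest 10.25), ERI1 (9.32, nearest 9.65), EYA2 (8.89, nearest 9.21), EZH2 (10.4, nearest 10.76), HAUS2 (9.66, nearest 9.91), MTMR9 (9.41, nearest 9.84), SENP5 (9.94, nearest 10.19), SYK (9.1, nearest 9.48) and UBR1 (8.54, nearest 8.95). It was higher for TCL1A (7.46, nearest 6.38), TMEM62 (8.55, nearest 7.91) and BIN1 (6.85, nearest 6.46). BATF was low on array B of day 2 (6.79, nearest 7.11), and CDK1 was high on array B of day 4 (12.9, nearest 12.73).

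The difference of WSU-DLCL2 from the other lines changed between the days for 20 of the 214 named genes, tested as an interaction with limma and adjusted over all genes. Values are the log2 difference at day 4 minus that at day 2. Upward were RGS1 by 2.94 (adjusted p = 1e-07), CD69 by 2.33 (adjusted p = 1.17e-08) and EGR3 by 1.84 (adjusted p = 1.22e-05). Further upward shifts were those of CNR1 by 1.38 (adjusted p = 3.26e-05), PCK1 by 1.11 (adjusted p = 0.0112), SATB1 by 0.99 (adjusted p = 0.00388), LRRTM4-AS1 by 0.82 (adjusted p = 0.0143), FCRL3 by 0.711 (adjusted p = 0.0257) and CD72 by 0.595 (adjusted p = 0.0421). Downward shifts were those of MYC at -0.729 (adjusted p = 0.00388), RRP9 at -0.677 (adjusted p = 0.004), PNO1 at -0.557 (adjusted p = 0.00995) and CDC6 at -0.471 (adjusted p = 0.0139). The others were LOC101927769 at -1.09 and GDAP1 at -1.05 (adjusted p = 0.000818 for both), EP300-AS1 at -1.02 (adjusted p = 0.0279), CD247 at -0.89 (adjusted p = 0.0283), DNAJC12 at -0.594 (adjusted p = 0.0145), CXCL11 at -0.578 (adjusted p = 0.00333) and EED at -0.397 (adjusted p = 0.0434).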

How the results depend on the processing

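Of 3640 higher and 4519 lower genes against the mean, and 1249 and 1108 against each line, counts moved by over 1.5 times as follows. The line as a random block gave 448 higher and 273 lower. Day 2 alone gave 2755 lower and 500 lower than each. Fewer comparison lines gave more genes called against each: 2047 higher without Karpas422, 2086 higher and 2321 lower without SU-DHL6, and 1778 lower without Pfeiffer. A 2-fold minimum gave 703, 704, 187 and 95, and among genes with 10xLCC, 66 high genes that fell (of 360) and 101 low genes that rose (of 289), where the fold was asked of the response. Leaving out single arrays or letters gave 2936 to 3799 higher, 3465 to 4983 lower, 868 to 1342 higher than each, 729 to 1322 lower than each (729 without letter B), 233 to 336 high genes that fell (233 without letter B) and 220 to 274 low genes that rose. The share of higher among called genes, 44.6%, was 53.6% at day 2 alone, 39.5% at day 4 alone and 62.1% with the random block. The causes were not tested.

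Of the 214 named genes, 126 were no longer called with the random block and 74 at a 2-fold minimum, and 13 calls were lost when arrays were left out, for BCL2, BCL6, MTAP, DDX43 and VCAN. Directions turned as follows. The mean of probe sets gave BCL2 2.093 and HLA-DQA1 -3.019, and the probe set with the highest line mean gave BCL2 7.188. Day 2 alone gave EGR3 -0.122 and EP300-AS1 0.002937. Without Karpas422 BCL2 was 0.01006, BIK -0.6026, DCN 1.716 and FCRLB 1.139. Without SU-DHL6 BCL6 was -0.05968, EP300-AS1 0.3556 and MTAP 0.1842. Without Pfeiffer CD44 was 0.1084, CD8A 0.06791, CDKN2A -0.08193, DDX43 0.02602, ELL2 0.09597, EPCAM 0.02912, GPR183 0.5528, ITGA4 -0.2546, TNFRSF17 0.3248 and TYROBP 0.2218.

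With the letter as a replicate block, 3693 genes were higher and 4605 lower than the mean, and 1275 and 1137 than each. Of 24 arrays 11 correlated best with their own letter, and no named gene changed its call. Without the 3 arrays farthest from their groups, an alternative chosen after seeing the data, these were 4007, 5165, 1466 and 1361.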
